A study of Mus musculus with 10 samples.

Results

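The genes examined here encode 10 ligands that keep microglia alive or attract them and other leukocytes: Csf1, Il34, Tgfb2, Cx3cl1, Ccl2, Ccl3, Ccl4, Cxcl10, Cxcl12 and Cxcl16. They were chosen by name, each symbol was matched to 1 Ensembl row of the deposited counts, and the 10 rows stand beside 47729 in the whole table. RNA was taken at postnatal day 40 from 5 wild-type mice of the CD1 strain. The source was the retinal pigment epithelium (RPE), the pigmented layer behind the retina, obtained from eyecups without retina, so cells of the choroid could be present. In each mouse, the GFP control eye received AAV-Best1-GFP alone, while the Nrf2 eye received AAV-Best1-GFP together with AAV-Best1-Nrf2, so that GFP expression was shared by all 10 eyes and Nrf2 by 5 of them. AAV is an adeno-associated virus, the human Best1 promoter is active in the RPE, and Nrf2, here the human cDNA, is a transcription factor that switches on defenses against oxidative stress. The Nrf2 eyes received more vector in total, and no eye received an equal amount of another vector, so vector amount and Nrf2 cannot be told apart.

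Microglia are the resident macrophages of the retina, and in the healthy eye they lie in its inner layers, away from the RPE. CSF1 and IL-34 are the ligands of the receptor CSF1R, on which microglia depend for survival, and TGF-beta keeps them in their resting state. Chemokines are small secreted proteins that steer leukocytes along gradients: CCL2 acts on CCR2 of monocytes, CCL3 and CCL4 on macrophages and lymphocytes, CXCL10 on CXCR3, CXCL12 on CXCR4, CXCL16 on CXCR6 and CX3CL1, or fractalkine, on CX3CR1 of microglia.

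Of the 10 ligands, 2 passed the test and both were upregulated in Nrf2 eyes: Csf1 and Ccl3. In the same paired edgeR fit 3.28% of the 18284 tested genes were higher at an adjusted p-value under 0.05, 2.47% were lower and 5.75% were called in either direction. The low chemokines did not pass: Ccl2 was higher in the Nrf2 eye of 5 of 5 mice and Ccl4 and Cxcl10 in that of 4, with a very large spread. Il34, Cxcl16, Cx3cl1, Cxcl12 and Tgfb2 differed by less than a factor of 2 on average and did not pass either. All 10 ligands entered the test, but Ccl2, Ccl3 and Ccl4 reached the filter level of 0.55 CPM in 0 GFP control libraries, and Cxcl10 in 1, so these 4 were tested because of their Nrf2 eyes. CPM are a gene's counts in every 1000000 of its library, with library totals scaled by edgeR's TMM factors.

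The stretch of 250 bases before the transcription start is shown for the 2 upregulated ligands and for Cxcl10, whose stretch holds a motif of NRF2. The sequences are from RefSeq (GRCm38.p6), which held a window for 6 of the 10 ligands, and run 5′ to 3′ on the strand of the gene, the minus strand for all 3. They lie at chr3:107760470-107760719 for Csf1, chr11:83649379-83649628 for Ccl3 and chr5:92348890-92349139 for Cxcl10, and capitals mark a motif match.
Csf1: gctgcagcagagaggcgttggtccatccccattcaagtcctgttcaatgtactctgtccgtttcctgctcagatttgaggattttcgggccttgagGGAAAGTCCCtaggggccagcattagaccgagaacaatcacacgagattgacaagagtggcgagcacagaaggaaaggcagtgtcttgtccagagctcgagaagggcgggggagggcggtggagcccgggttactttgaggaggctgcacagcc
Ccl3: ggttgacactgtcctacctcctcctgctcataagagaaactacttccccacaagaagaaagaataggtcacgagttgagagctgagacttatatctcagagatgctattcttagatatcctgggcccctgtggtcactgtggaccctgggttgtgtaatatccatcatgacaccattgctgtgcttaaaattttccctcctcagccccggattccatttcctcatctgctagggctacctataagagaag
Cxcl10: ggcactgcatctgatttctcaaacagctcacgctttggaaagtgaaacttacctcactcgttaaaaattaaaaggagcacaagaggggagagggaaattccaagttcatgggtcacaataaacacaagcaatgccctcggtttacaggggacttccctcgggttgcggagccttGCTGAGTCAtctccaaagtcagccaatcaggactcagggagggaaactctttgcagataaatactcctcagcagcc
Both strands of the 300-base windows, which run from 250 bases before to 50 after the start, were searched for TGACNNNGC, the core of the antioxidant response element that NRF2 binds. It was found in Cxcl10 and in none of the other 5 windows, against 12.4% of 32851 windows of all genes. Its match begins 76 bases before the start, on the opposite strand. A form of the NF-kappaB site (GGG, any 2 bases, TTTCC) was searched for, like the TATA box, after the sequences had been read. Among the 6 windows it was found in Csf1 alone, beginning 154 bases before the start on the opposite strand. It was found in 1.63% of all windows. Other forms of this site were not searched for, and gggaaattcc and gggacttccc in the Cxcl10 stretch do not match this form. A window without this form may therefore hold another. The TATA box, TATAAA, was found in Cx3cl1 and Tgfb2 and in 13.6% of all windows. Both of these matches lay outside the 3 stretches printed, and none of the matches overlapped. Each match describes letters in this window and no more.

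The libraries held 12298404 to 27310638 counts, and a count of 0 allows up to 3 counts, which is 0.113 to 0.234 CPM and covers counting error only. RPE genes were abundant in every library, with a summed CPM of 11 markers of 22446 to 45046 in control and 10140 to 30401 in Nrf2 eyes. Within that list 6 markers fell, among them Rpe65, the isomerase of the visual cycle, and Rgr. Rpe65 went from 3527 ± 852 to 554 ± 363 CPM and Rgr from 8944 ± 2592 to 1449 ± 956 CPM (SD, n = 5 each). The sum also holds markers that did not fall, so it does not show the size of these changes. Best1 itself was at most at 1.56 CPM in any library. Microglial RNA was low in control eyes: the 20 genes of the microglia list summed to 433 to 557 CPM there and to 815 to 2950 CPM in Nrf2 eyes, and 17 of the 20 rose. P2ry12, a purinergic receptor of microglia, was at 0.725 ± 0.521 CPM in control and at 45.8 ± 30.1 CPM in Nrf2 eyes (SD, n = 5 each). More cells of a type and more RNA per cell cannot be told apart in such bulk samples. Rod RNA marked the eyes of mouse 2, with summed levels of 18015 and 6943 CPM against 151 to 2898 CPM in the other eyes. The list of 9 T and NK cell markers summed to at most 5.86 CPM in 9 libraries and to 24.3 CPM in the Nrf2 eye of mouse 4.

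The growth factors are described first. Csf1 (ENSMUSG00000014599, chromosome 3, 107741048 to 107760469, mm10) encodes the colony-stimulating factor that macrophages and microglia need. Its levels in control eyes were 24.4, 10.7, 11.5, 11 and 11.1 CPM in mice 1 to 5. The Nrf2 eyes of the same mice were at 48.4, 41.8, 51.9, 50.1 and 52.4 CPM. The groups did not overlap, the Nrf2 eyes lay close together, and the control eye of mouse 1 stood above the other 4 control eyes. Csf1 rose from 13.8 ± 5.96 to 48.9 ± 4.29 CPM (SD, n = 5 each). The fitted log2 difference was 1.90 (SE 0.23), with an adjusted p of 0.0026, and the Nrf2 eye was the higher in 5 of 5 mice. The call held in all 13 alternatives, with adjusted p-values up to 0.0174. Csf1, Ccl2 and Ccl3 were the ligands whose groups did not overlap, all with higher Nrf2 eyes, as was the case for 3.72% of tested genes. The same 3 were higher in the Nrf2 eye of every mouse, against 8.94% of tested genes.

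Il34 (ENSMUSG00000031750, chromosome 8, 110741829 to 110805924), the second CSF1R ligand, was at 5.38, 11.6, 8.25, 11.9 and 8.91 CPM in the control eyes of mice 1 to 5. In their Nrf2 eyes it was at 7.57, 10.2, 14.2, 21.9 and 12.7 CPM. The ranges overlapped, and mouse 2 went the other way. The log2 fold change of 0.49 (SE 0.19) did not pass (adjusted p = 0.218), and it was not called in any of 13 alternatives. Antisense genes lie within Il34, with at most 52 counts in all libraries together, against 2125 for Il34.

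Tgfb2 (ENSMUSG00000039239, chromosome 1, 186622792 to 186705989), the TGF-beta form that is most abundant in the eye, was at 140.4, 72.5, 74.1, 67.9 and 76.2 CPM in the control eyes. Its Nrf2 eyes were at 61, 72.7, 109.6, 129 and 124 CPM. Mice 3, 4 and 5 had the higher level in the Nrf2 eye, mouse 1 in the control eye, and the 2 eyes of mouse 2 were alike. Its log2 fold change was 0.21 (SE 0.38) with an adjusted p of 0.811. Without mouse 1 it was 0.59 (adjusted p = 0.116), and with the rod list as a covariate it was -0.02.

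Among the chemokines, Ccl3 (ENSMUSG00000000982, chromosome 11, 83647844 to 83649355), which encodes macrophage inflammatory protein 1-alpha, was nearly silent in control eyes, with 2, 0, 0, 1 and 0 counts in mice 1 to 5. The Nrf2 eyes had 35, 38, 26, 48 and 67 counts, that is 1.66, 1.48, 1.03, 3.75 and 3.91 CPM. The groups did not overlap and every mouse moved the same way. Ccl3 rose by 4.13 on the log2 scale, with an SE of 0.39 and an adjusted p of 0.00532, a size that depends on the prior count because the control counts are so low. The ratio of the summed counts, 214 against 3, was 65.3 after scaling for depth (exact 95% interval 22.1 to 319). This and the other intervals of count ratios cover counting error only, not the spread between mice, and amplified reads are not independent molecules. It was called in all 12 alternatives that tested it, with adjusted p-values up to 0.0308. The alternative with a mean of at least 50 counts left it out.

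Ccl4 (ENSMUSG00000018930, chromosome 11, 83662584 to 83664683) lies beside Ccl3 and encodes macrophage inflammatory protein 1-beta. Its counts in control eyes were 3, 2, 3, 0 and 0, and those in Nrf2 eyes were 26, 22, 5, 117 and 36. In CPM the Nrf2 eyes were at 1.23, 0.854, 0.198, 9.13 and 2.1. Mouse 4 was far above the rest, and in mouse 3 the eyes were alike (0.219 and 0.198 CPM). Across the mice the log2 fold change was 3.07, its SE 1.12 and the adjusted p 0.123. Without mouse 4 it was 2.30, and the ratio of the summed counts went from 23.6 (exact 95% interval 11.7 to 55.4) to 9.56 (4.65 to 22.8), below the first interval and with counting error only. Ccl4 was called with DESeq2 (adjusted p = 0.00251), which called 5.53% of its 19309 genes higher and 9.44% in either direction, and in the fit without the mouse block (adjusted p = 0.0486), and in none of the other 9 alternatives that tested it.

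Ccl2 (ENSMUSG00000035385, chromosome 11, 82035571 to 82037453), the monocyte chemoattractant protein, had 4, 0, 2, 0 and 4 counts in the control eyes of mice 1 to 5. The Nrf2 eyes had 52, 58, 10, 432 and 13 counts, or 2.46, 2.25, 0.397, 33.7 and 0.76 CPM. All Nrf2 eyes lay above all control eyes, and that of mouse 4 held most of the counts. With a log2 fold change of 3.69 and an SE of 1.30, Ccl2 missed the threshold (adjusted p = 0.0765). Summed over the group the count ratio was 51.7 (exact 95% interval 27.9 to 109), and without mouse 4 it was 11.4 (6.03 to 24.4), below the first interval, which covers counting error only. Ccl2 passed with DESeq2 (adjusted p = 0.0202), in the fit without the mouse block (adjusted p = 0.0412) and without the filter on low counts (adjusted p = 0.021). Leaving out mouse 4, its log2 fold change was 2.60.

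Cxcl10 (ENSMUSG00000034855, chromosome 5, 92346638 to 92348889), an interferon-induced attractant of T and NK cells, was at 1.26, 0, 0.219, 0.299 and 0 CPM in control eyes. Its Nrf2 eyes were at 3.64, 6.72, 0.357, 92.6 and 0 CPM. The level of mouse 4 was again far above the others, while both eyes of mouse 5 had 0 counts. The log2 fold change of 3.73 (SE 1.59) did not pass (adjusted p = 0.167). The value was 2.07 when mouse 4 was left out and 5.57 when mouse 1 was, the one alternative with a call (adjusted p = 0.0468). The ratio of the summed counts went from 40.1 (28.4 to 58.5) to 7.95 (5.37 to 12.2) without mouse 4, whose Nrf2 eye held 1187 of the 1446 counts of its group, and both intervals cover counting error only. Cxcl10 lies within Art3 on the opposite strand, which had 1201 counts in all libraries together and a log2 fold change of -0.04.

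The 3 other chemokines were well above the filter level in both groups and did not pass. Cx3cl1 (ENSMUSG00000031778, chromosome 8, 94772009 to 94782427), whose product sits on the membrane until it is shed, was at 55.8, 81.5, 67.3, 60.2 and 92.4 CPM in control eyes. In Nrf2 eyes it was at 62.3, 83.3, 69.5, 107 and 83 CPM. The ranges overlapped widely, and the log2 fold change was 0.18, with an SE of 0.17 and an adjusted p of 0.631, and 0.02 without mouse 4. The within-mouse differences ran from -0.15 to 0.82 on the log2 scale.

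Cxcl16 (ENSMUSG00000018920, chromosome 11, 70453983 to 70459984), another membrane-bound chemokine, was at 22.7, 12.7, 21.5, 15.3 and 9.18 CPM in control eyes. Nrf2 eyes were at 29.6, 25.9, 17.8, 40.5 and 31 CPM. The groups overlapped through mouse 3, where the control eye was the higher. Over the 5 mice Cxcl16 had a log2 fold change of 0.86 (SE 0.36) and an adjusted p of 0.164, and it passed with DESeq2 alone (adjusted p = 0.0377).

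Cxcl12 (ENSMUSG00000061353, chromosome 6, 117168535 to 117181367), the stromal cell-derived factor, was at 52.4, 27.8, 10.9, 13.2 and 20.9 CPM in control and at 12.3, 35.8, 27.2, 51.5 and 29.2 CPM in Nrf2 eyes. The control eye was the higher in mouse 1 and the Nrf2 eye in the other 4. For Cxcl12 the log2 fold change was 0.47 (SE 0.69), at an adjusted p of 0.762, and it was 1.06 without mouse 1, 0.07 without mouse 4 and -0.09 with the rod list as a covariate. In mouse 1 the summed fibroblast list went from 1024 to 423 CPM and the pericyte and smooth muscle list from 1381 to 199 CPM between control and Nrf2 eye. In mouse 4 they went from 562 to 1324 CPM and from 259 to 1045 CPM. The within-mouse difference of Cxcl12 was -2.08 in mouse 1 and 1.96 in mouse 4, and that of Tgfb2 was -1.20 and 0.92. The part of these stromal markers in either ligand was not tested.

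**Figure D1:**
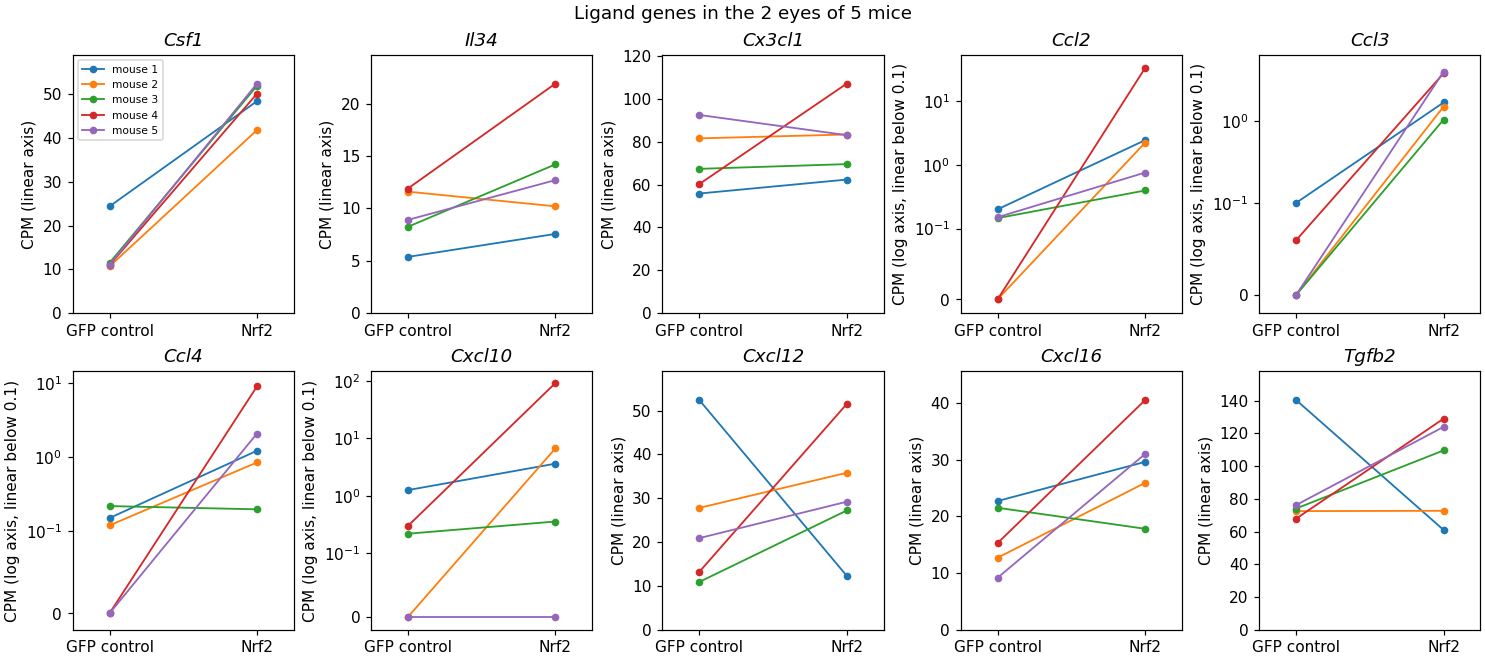
CPM of each ligand gene in the GFP control and the Nrf2 eye, with a line for each of 5 mice. The axis is linear from 0 for the 6 abundant ligands and logarithmic, linear below 0.1 CPM, for Ccl2, Ccl3, Ccl4 and Cxcl10. All 5 lines climb for Csf1 and Ccl3, and mouse 4 reaches 33.7 CPM for Ccl2 and 92.6 CPM for Cxcl10.

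**Figure D2:**
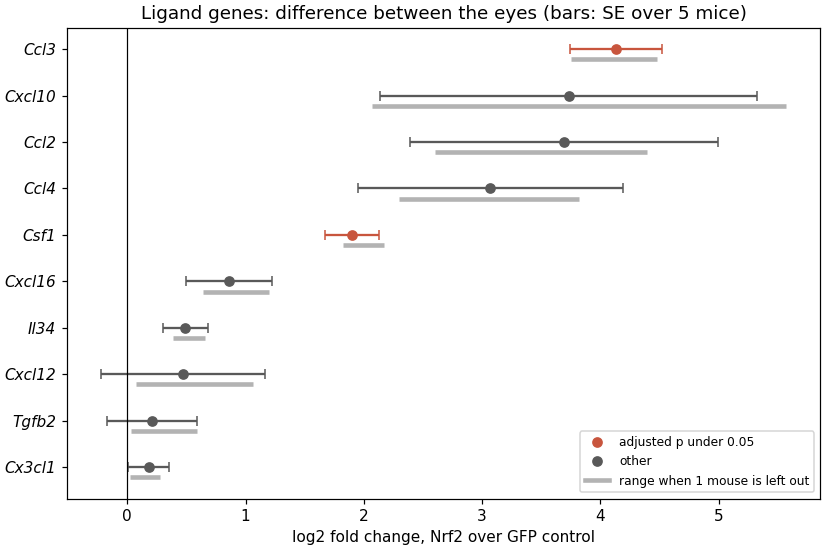
Log2 fold change of each ligand, Nrf2 over GFP control, from the paired edgeR fit, with bars for the SE over 5 mice and grey bars for the range of values when 1 mouse is left out. Ccl3 at 4.13 and Csf1 at 1.90 are marked as passing, while Cxcl10 at 3.73 has an SE of 1.59.

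Levels of different ligands were compared per kilobase of exon, as RPKM, which is CPM divided by the exon length in kilobases. In control eyes Cx3cl1 (18.2 ± 3.88 RPKM) and Tgfb2 (14.9 ± 5.26 RPKM) were the most abundant (SD, n = 5 each), and their ranges overlapped. Next were Cxcl16 (5.38 ± 1.91 RPKM), Il34 (4.7 ± 1.36 RPKM), Cxcl12 (3.06 ± 2.04 RPKM) and Csf1 (2.61 ± 1.13 RPKM), each of which overlapped its neighbor in this order. Cxcl10, Ccl4, Ccl2 and Ccl3 had mean levels from 0.158 down to 0.0419 RPKM, also with overlapping neighbors, and Csf1 lay above Cxcl10 in 5 of 5 control eyes. In Nrf2 eyes Csf1 was at 9.26 ± 0.812 RPKM, beside 6.79 ± 2.78 RPKM for Il34, the other CSF1R ligand, and Ccl3 was at 3.09 ± 1.77 RPKM.

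**Figure D3:**
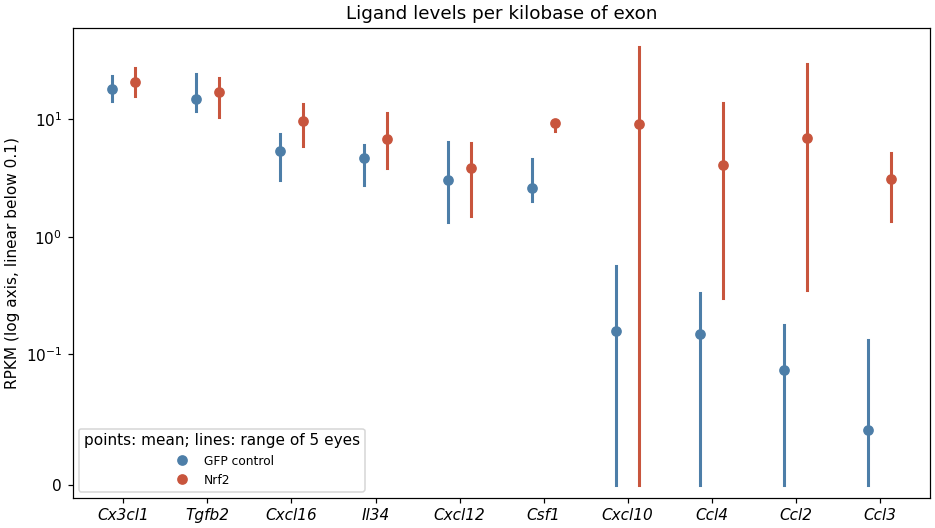
Mean RPKM of the ligands (points) and the range over 5 eyes (lines), in the order of their level in GFP control eyes, on an axis that is logarithmic above 0.1 and linear below. Csf1 moves from 2.61 to 9.26 RPKM with no overlap, and the ranges of Cx3cl1 and Tgfb2 overlap in both groups.

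To set the ligands beside the rise of microglia genes, the differences between the eyes were compared mouse by mouse. The summed microglia list, taken without Cx3cr1, Csf1r and Ctss, differed between the eyes by 2.33, 1.27, 1.64, 2.86 and 2.74 on the log2 scale in mice 1 to 5. Over the same mice Ccl3 differed by 3.11, 3.95, 3.47, 4.57 and 5.30. Ccl3 had 0 to 2 counts in these control eyes, so the size of its differences depends on the prior count. The order of the mice in Ccl3 rests partly on these counts, so it was not set against that of the microglia list. Csf1 differed by 0.99, 1.96, 2.16, 2.17 and 2.22, with mouse 1, whose microglia list ranked in the middle, at the low end and with the highest control eye. The Csf1 level in Nrf2 eyes stayed between 41.8 and 52.4 CPM while the microglia list ran from 655 to 2250 CPM. With 5 mice no correlation was computed.

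The Nrf2 eye of mouse 4 had the highest levels of Ccl2 (33.7 CPM), Ccl4 (9.13 CPM) and Cxcl10 (92.6 CPM). The same eye had 24.3 CPM of T and NK cell markers against 4 in its control eye, and 576 against 149.7 CPM of the interferon list, in which Cxcl9 alone had 79.6 CPM. Over all mice the summed T and NK cell list was the higher in the Nrf2 eye of 5 of 5. Of its 6 tested genes 1 was called, against 3.28% of all tested genes that were higher. The called gene was Cd3e, a chain of the T cell receptor complex, at 0.175 ± 0.141 CPM in control and 1.02 ± 1.14 CPM in Nrf2 eyes (log2 fold change 1.77, adjusted p = 0.0474), with 0 control and 3 Nrf2 libraries at the filter level. Mouse 2, whose Nrf2 eye had the second highest Cxcl10 level (6.72 CPM), had 2.99 CPM of T and NK cell markers in the Nrf2 eye and 2.34 in the control eye. The monocyte list, which holds the CCL2 receptor Ccr2, summed to 50.1 to 254 CPM in control and 98.7 to 256 CPM in Nrf2 eyes and was the higher in the Nrf2 eye of 3 of 5 mice, with 0 of its 6 tested genes called. That sum was mostly Plac8 (113 ± 64.9 and 112 ± 58.6 CPM) and Fn1 (37.2 ± 16.8 and 35.2 ± 18.1 CPM), which other cells express too, so it does not follow monocytes alone. The defining monocyte marker Ly6c2 was at 0.448 ± 0.418 and 1.29 ± 1.48 CPM (adjusted p = 0.565) and at most at 3.82 CPM, in the Nrf2 eye of mouse 4. The part of these cells in the chemokine levels was not tested.

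**Figure D4:**
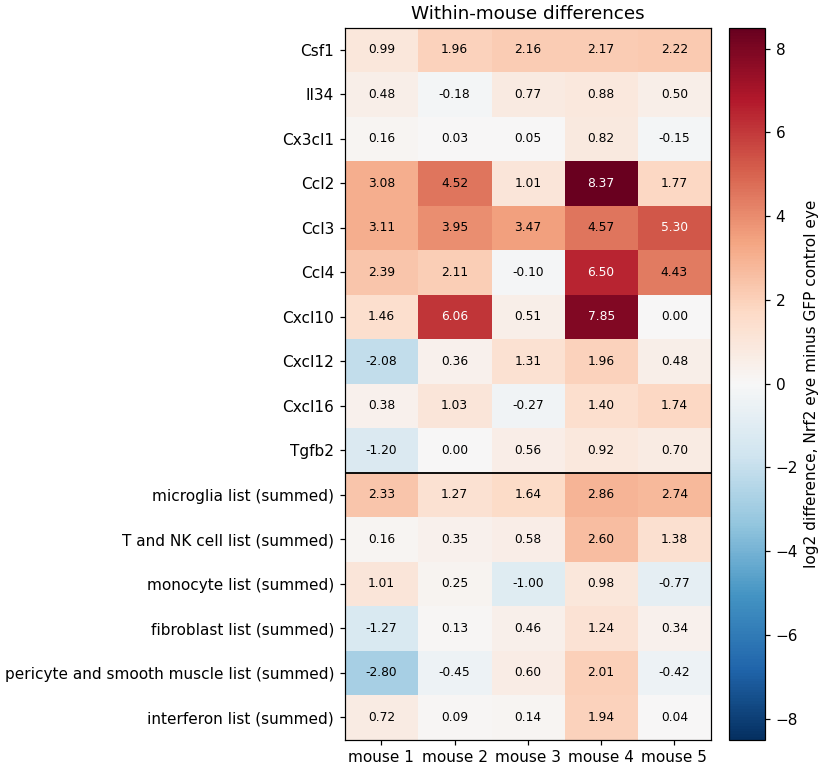
Log2 difference between the Nrf2 and the GFP control eye of each mouse, for the 10 ligands and, below the line, for the summed CPM of 6 gene lists. Colors and printed values show the same quantity. Csf1 and Ccl3 are positive in all 5 mice, and mouse 4 has 8.37 for Ccl2 and 7.85 for Cxcl10. Where a control eye had 0 counts, the size depends on the prior count.

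By their pattern over the 10 libraries, the nearest of 13403 well-counted genes to Csf1 were Gstp1, a glutathione transferase, and Lpl, lipoprotein lipase, with root mean square distances of 0.23 and 0.26 on the log2 scale. Gstp1 rose from 231 ± 79.5 to 689.7 ± 99.9 CPM and Lpl from 95.5 ± 35.6 to 384 ± 85.1 CPM (SD, n = 5 each). The nearest to Ccl3 were Aif1, which encodes the microglial protein IBA1, and Ctss, which encodes cathepsin S, at distances of 0.47 and 0.48. Aif1 rose from 0.946 ± 0.902 to 15 ± 6.71 CPM. The likeness to Ccl3 rests on its Nrf2 eyes, because its control values come from 0 to 2 counts and are set largely by the prior count.

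The receptors of the ligands were examined next. Of 17 receptor genes 15 were tested, 1 rose and 0 fell, a share near the 3.28% of all tested genes that were higher, and the median log2 fold change was 0.65, against -0.01 for all tested genes. Cx3cr1, the fractalkine receptor, rose from 2.07 ± 0.788 to 34.4 ± 20.5 CPM (SD, n = 5 each), or by 3.85 on the log2 scale (SE 0.46), at an adjusted p of 0.00227. The annotated span of Cx3cr1 runs across several neighbors, among them Wdr48 and Gorasp1, whose log2 fold changes were -0.07 and -0.06. Csf1r, the receptor of Csf1 and Il34, was at 198 ± 52.6 CPM in control eyes, where P2ry12 was under 1 CPM on average. In Nrf2 eyes Csf1r was at 142 ± 58.2 CPM (log2 fold change -0.57, SE 0.33, adjusted p = 0.305). Its level was the higher in the Nrf2 eye of 1 of 5 mice.

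Ccr1, a Ccl3 receptor, was low, at 0.278 ± 0.193 CPM in control and 0.668 ± 0.609 CPM in Nrf2 eyes (adjusted p = 0.495). Ccr2, which binds CCL2 on monocytes, was at 0.478 ± 0.353 and 0.873 ± 0.554 CPM (adjusted p = 0.643). Both chemokine receptors lay close to the level at which a gene could be tested. The CXCL16 receptor Cxcr6 was at 0.121 ± 0.165 and 1.37 ± 1.38 CPM and did not pass (log2 fold change 2.46, SE 0.84, adjusted p = 0.169). It was tested because of its Nrf2 eyes, with 0 control and 4 Nrf2 libraries at the filter level. Ackr3, a scavenging receptor of CXCL12, was at 79.2 ± 10.8 and 58.7 ± 12.2 CPM, lower in the Nrf2 eye of all 5 mice (adjusted p = 0.1). The TGF-beta receptor gene Tgfbr2 was at 38.9 ± 9.65 and 61.3 ± 14.5 CPM, higher in 5 of 5 mice (adjusted p = 0.105).

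Genes that shed, store or activate the ligands or other TGF-beta forms moved in both directions. Of 16 tested, 3 rose and 2 fell, where 3.28% of all tested genes were higher and 2.47% lower. The median log2 fold change was 0.12. Ctss, whose protease can release CX3CL1 from membranes, rose from 13 ± 2.84 to 228 ± 125 CPM (log2 fold change 3.97, SE 0.37, adjusted p = 0.000972). Mmp9, a gelatinase, rose by 4.73 (SE 0.69, adjusted p = 0.00893), from 0.674 ± 0.981 to 14.1 ± 5.99 CPM. Nrros, which anchors latent TGF-beta 1 on microglia, rose by 3.26 (SE 0.41, adjusted p = 0.00538), from 0.549 ± 0.322 to 5.92 ± 2.09 CPM. The 2 genes that fell encode the alpha and beta subunits of the integrin that frees TGF-beta from its latent complex. Itgb8 went from 833 ± 237 to 408 ± 199 CPM, a log2 difference of -1.10 with an SE of 0.21 (adjusted p = 0.0164). Itgav went from 890.2 ± 589 to 362 ± 222 CPM, a log2 difference of -1.24 with an SE of 0.32 (adjusted p = 0.0374). Itgb8 was not called without mouse 2 or 5 (adjusted p = 0.0723 and 0.0566), nor was Itgav without mouse 1, 2 or 5 (0.0838, 0.0867 and 0.11), and neither was called in the fit without the mouse block (0.109 and 0.213). The sheddases Adam10 and Adam17 had log2 fold changes of 0.14 and 0.01 and did not pass.

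**Figure D5:**
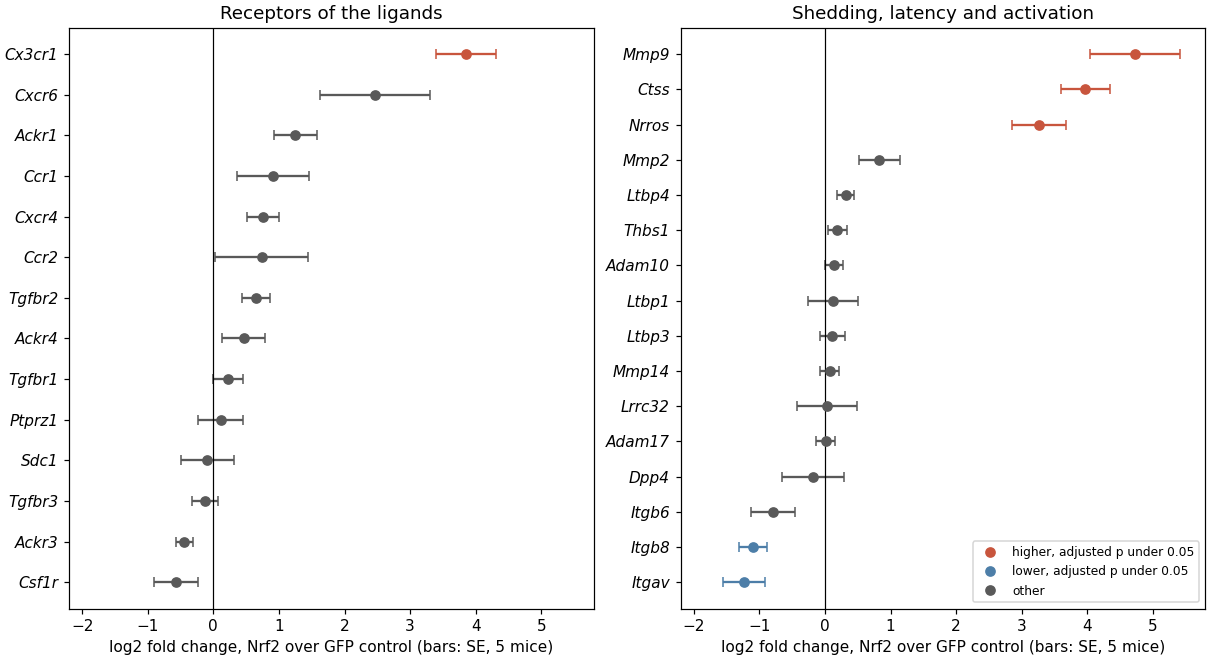
Log2 fold changes, Nrf2 over GFP control, of tested receptor genes (left) and of the genes for shedding, latency and activation (right), with bars for the SE over 5 mice. Cx3cr1 at 3.85 and Ctss, Mmp9 and Nrros at 3.26 to 4.73 pass upward, and Itgav and Itgb8 pass downward.

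Other chemokine genes were for the most part at or near 0. Of 27 in the list 17 were tested, 2 rose and 0 fell, beside 3.28% of all tested genes that were higher and 2.47% that were lower. The median log2 fold change was 0.84. Cxcl5, a neutrophil attractant, rose from 0.364 ± 0.298 to 2.42 ± 0.685 CPM (log2 fold change 2.58, SE 0.30, adjusted p = 0.0116). Cxcl17, a mucosal chemokine, rose by 1.62 (SE 0.32, adjusted p = 0.0163), from 5.57 ± 4.79 to 18.6 ± 19.2 CPM, in 5 of 5 mice although the groups overlapped. The Cxcl17 call was lost without mouse 2, 4 or 5 (adjusted p = 0.0528, 0.0802 and 0.0564) and in the fit without the mouse block (0.338). Neutrophil markers were low in both groups, with a summed CPM of 2.19 to 4.63 in control and 1.48 to 6.19 in Nrf2 eyes. Cxcl9 (log2 fold change 1.58, adjusted p = 0.685), a CXCR3 ligand like Cxcl10, was at 79.6 CPM in the Nrf2 eye of mouse 4 and at most at 0.43 CPM in the other Nrf2 eyes.

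Of 19 further growth factors and cytokines, 18 had a row, 13 were tested, 1 rose and 0 fell (3.28% of all tested genes were higher), with a median log2 fold change of 0.46. Gas6, a bridging ligand of the MERTK receptor used by phagocytes and RPE, rose from 447 ± 55.4 to 761 ± 109.9 CPM (log2 fold change 0.76, SE 0.16, adjusted p = 0.0285), with no overlap between the groups. Its call was lost without mouse 2, 3, 4 or 5 (adjusted p = 0.06, 0.0797, 0.0918 and 0.0889). The inflammatory cytokine genes Tnf (1.53 ± 1.16 and 2.42 ± 1.35 CPM, adjusted p = 0.412) and Il1b (adjusted p = 0.841) did not pass, and Il6 had at most 0.116 CPM in any library. Tgfb1 was at 6.74 ± 1.87 and 9.07 ± 3.49 CPM (adjusted p = 0.386). Over the receptor, activation, chemokine and cytokine lists together, 61 of 78 genes were tested, 7 rose and 2 fell. Among all tested genes 3.28% were higher and 2.47% lower.

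Genes that respond to the ligands or share their control were described from fixed lists. Among 15 tested genes of CSF1R and TGF-beta responses 4 rose and 0 fell, where 3.28% of all tested genes were higher and 2.47% lower. The 4 were Spi1 (log2 fold change 2.79, SE 0.42, adjusted p = 0.00789), Irf8 (1.88, SE 0.35, adjusted p = 0.0127), Pik3cg (3.45, SE 0.45, adjusted p = 0.00786) and Sall1 (2.96, SE 0.72, adjusted p = 0.0418). Spi1, Irf8 and Sall1 encode transcription factors of microglia and Pik3cg a kinase subunit of leukocytes. Sall1 was not called when any 1 mouse was left out (adjusted p from 0.0538 to 0.112) or on thinned libraries (0.0582), nor was Irf8 without mouse 4 (0.057). Of 10 NF-kappaB response genes 2 rose, against 3.28% of all tested genes that were higher. They were Icam1, by 1.83 (SE 0.11, adjusted p = 0.000559), and Tnfaip2, by 0.43 (SE 0.08, adjusted p = 0.0499, not called when any 1 mouse was left out, up to 0.13). Tnfaip2 was also not called without the mouse block (0.358) or without the filter on low counts (0.0886). Of 13 interferon response genes 1 rose, a share near that of all tested genes (3.28%). It was Ifit1, by 0.93 (SE 0.21, adjusted p = 0.03), whose call was lost without mouse 1, 2, 3 or 4 (up to 0.0911) and without the mouse block (0.365). With the rod list as a covariate Itgb8, Itgav, Cxcl17, Gas6, Irf8, Sall1, Ifit1 and Tnfaip2 were not called, with adjusted p-values from 0.0568 to 0.117. Their directions were kept, and the log2 fold changes of that fit were -0.93 for Itgb8, -0.97 for Itgav, 1.42 for Cxcl17, 0.67 for Gas6, 1.80 for Irf8, 3.50 for Sall1, 0.79 for Ifit1 and 0.50 for Tnfaip2. All 10 NRF2 target genes rose, with a median log2 fold change of 3.80.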

How the data were processed

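RNA of 10 eyes was sequenced, 5 Nrf2 and 5 GFP control, with the 2 eyes of a mouse paired by the individual number in the labels. Once group means were subtracted, log2 CPM correlated between the eyes of a mouse (Pearson's r 0.16 to 0.72 across genes) against -0.43 to 0.25 between mice. Sequencing took 2 runs, and the labels do not tell which library was in which. All pairs of libraries differed by more than sampling noise (smallest chi-square per degree of freedom 34.5).

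Per the labels, retina was removed, the eyecup was cleaned, and the polyA RNA was amplified by a kit for small amounts. The authors aligned reads to mm10 with STAR and counted them with featureCounts, and in parallel used Salmon (0.8.2 in the submitters' processing notes). Which of these gave the deposited table, and the strand setting, are not given in the sources used here. The values are the raw counts per gene that the authors deposited, with no normalization. Symbols, positions and exon lengths are from GENCODE M21 (the same build), which held 47310 of 47729 identifiers, or 99.1%. Columns of other samples numbered 0.

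Genes with at least 0.55 CPM in 2 libraries (filterByExpr on the paired design) entered edgeR (4.0.16, under R 4.3.3), with TMM scaling, the quasi-likelihood F test and a block for each mouse. Benjamini-Hochberg adjustment ran over all tested genes, and the threshold was 0.05. All adjusted p-values are from this test unless DESeq2 (1.42.0) is named, and fold changes use a prior count of 2. The SE is the SD of the differences in log2 CPM between the eyes, divided by the square root of the number of mice. Alternatives were DESeq2, its size factors in edgeR, no block, other low-count filters, thinned libraries, the mean of the rod list as a covariate and leaving out each mouse. The ligands and gene lists were chosen with earlier results of these data known. Named genes are all 10 ligands, up to 4 genes past the threshold in each direction of a list, the receptors (1 is not reported here), up to 3 markers of a list and the 2 nearest genes of each called ligand among those with a mean of at least 50 counts. Cxcr6, Ackr3, Tgfbr2, Cxcl9, Adam10, Adam17, Tnf, Il1b, Il6 and Tgfb1 were named after their values were seen. The list symbols Flt3l and Ctgf matched no row, and of 2 rows named Ccl19 the one with counts was used.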

Additional observations from a re-analysis of the deposited data

Results flagged for a closer look

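Each group of 5 log2 CPM values was checked for a value far from the others, for the 10 ligands and 6 summed marker lists. Of 32 groups 3 held one, where chance gives about 1.6, so the number of such values is little above that. Csf1 in the GFP control eye of mouse 1 stood at 4.62 on this scale, while the other control eyes lay between 3.43 and 3.54. Tgfb2 in the same library was at 7.13, against 6.09 to 6.25. That eye also had the highest summed levels of the control group for the fibroblast list (1024 CPM) and the pericyte and smooth muscle list (1381 CPM). Without mouse 1 the log2 fold change was 2.17 for Csf1 and 0.59 for Tgfb2. The summed rod list in the Nrf2 eye of mouse 2 was at 12.76 on the log2 scale, against 8.29 to 8.90 in the other Nrf2 eyes.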

How the results depend on the processing

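Csf1 and Ccl3 kept their direction and their call in every alternative that tested them. The number of ligands called was 2, against 5 with DESeq2 (Ccl2, Ccl4 and Cxcl16 in addition), 4 with no pairing of the eyes (Ccl2 and Ccl4 in addition), 3 with no filter on low counts (Ccl2 in addition) and 1 where a mean of at least 50 counts was asked for, a filter that left out Ccl3 and Ccl4. Leaving out each mouse in turn it ran from 2 to 3, the third being Cxcl10 without mouse 1. With the rod list as a covariate the log2 fold changes of Cxcl12 and Tgfb2 turned to -0.09 and -0.02, neither called before or after, and the cause was not tested. Over all genes 1051 were called, against 1823 with DESeq2, which tested 19309 genes, 545 with the rod covariate and 555 (without mouse 2) to 846 (without mouse 1) when a mouse was left out. Of the 1051, 1049 were also called by DESeq2. With no pairing 758 were called, of which 676 were shared. Of the receptor, activation, chemokine and cytokine genes 9 were called, against 15 with DESeq2, 5 with the rod covariate, and 5 (without mouse 2) to 10 (without mouse 3) when a mouse was left out. The low-count filter on the 2 groups, chosen after seeing the data, gave 1036 genes and the same 2 ligands, but did not test Ccl2, Ccl4 or Cxcl10. Ccl2, Ccl3 and Ccl4 had at most 4 counts in any control library, so the size of their fold changes is uncertain. On libraries thinned to the smallest total the same 2 ligands were called.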
